A study of Mus musculus with 20 samples.

Results

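The genes described here are 38 components of the protein-folding machinery of the endoplasmic reticulum (ER) and of the unfolded protein response, chosen by gene symbol and followed in mouse pancreas around birth. They comprise 20 chaperones, co-chaperones and folding enzymes, 10 genes of ER-associated degradation, 7 stress sensors and response factors, and Sec61a1, the channel-forming subunit of the ER translocon. A probe set that belonged to 1 gene symbol was found for 36 of the 38, and all 36 lay above the array median on each of the 20 arrays, so all 36 were among the 17993 genes tested, out of 30063 genes with such a probe set. Manf, a secreted ER-resident factor, and Pdia4, a disulfide isomerase, share their probe sets with other symbols and were not analysed here.

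RNA of whole pancreas from C57BL/6J mice was hybridised to Affymetrix arrays in 4 groups. The day of birth (P0) was represented by 6 arrays of pups lacking inceptor (Iir -/- in the labels, gene Elapor1) and 5 arrays of wild-type pups, all fasted for 5 h. Embryonic day 18.5 (E18.5) was represented by 5 arrays of Iir -/- embryos and 4 arrays of wild-type embryos, whose mothers were fasted for 2 h. Sex was not determined. Whether the arrays of a group come from different animals or litters is not given in the labels, so a p-value here speaks only of the scatter among these arrays, which may be technical. Age, fasting time and the running sample numbers change together and cannot be told apart. The labels do not describe how the Iir allele was made.

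Proteins that enter the secretory pathway cross into the ER through the translocon, fold with the help of BiP and other chaperones, form disulfide bonds with the protein disulfide isomerases, and are removed by ER-associated degradation when folding fails. When unfolded protein accumulates, the sensors IRE1, PERK and ATF6 raise the production of chaperones and degradation factors, through the transcription factors XBP1, ATF4 and cleaved ATF6. Pancreatic acinar cells, which secrete digestive enzymes, and beta cells, which secrete insulin, are classic examples of cells with a large and active ER.

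Every value below is a deposited log2 signal after RMA, so a difference of 1 is a doubling, and signals of different genes are not set against each other. The inceptor gene Elapor1 had log2 signals between 5.58 and 6.38 in P0 knockouts, against 11.07 and 12.01 in P0 wild type, and between 5.79 and 6.50 in E18.5 knockouts, against 11.66 and 12.06 in E18.5 wild type, so each array matched its genotype label. Pancreas markers were present throughout: Cpa1, an acinar protease precursor, sat at the array ceiling of 19.93 on all 20 arrays. No ER gene reached that ceiling on any array, the highest being Pdia2, a disulfide isomerase best known from pancreas, at 18.73 on E18.5 wild-type array 1. Markers of neighbouring organs varied between arrays. The mean of 12 liver markers ran from 9.34 to 13.14 in P0 knockouts, 7.32 to 11.48 in P0 wild type, 9.36 to 12.59 in E18.5 knockouts and 9.59 to 11.81 in E18.5 wild type. The mean of 8 intestinal markers ran from 5.77 to 7.23, 5.63 to 6.89, 6.77 to 10.19 and 6.42 to 8.67 in the same groups, and that of 5 skeletal muscle markers from 5.52 to 9.27, 5.56 to 6.78, 5.45 to 8.75 and 5.37 to 6.65.

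The promoters of 9 of these genes hold a known cis element of the unfolded protein response, and its sites are shown so that the age differences of these genes can be read beside them. RefSeq promoter windows of GRCm38.p6 (250 bases before to 50 bases after the start) were held for 32 of the 38 genes. The ER stress response element, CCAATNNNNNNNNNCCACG, through which ATF6 and XBP1 act together with NF-Y, was searched on both strands without mismatches. It lay in the windows of 9 of the 32 genes (28.12%), against 37 of 27025 genes with a window (0.14%) and 23 of 10962 tested genes with a window (0.21%). Its 3′ end CCACG alone, which is part of every full element, lay in 27 of the 32 (84.38%), against 35.48% of all genes. The UPR element TGACGTGG was found in 0 of the 32, against 0.71% of all genes. The counts over all genes include the listed genes themselves. Since the list was made of ER and unfolded protein response genes, these shares are a description and not a test. The full element was found at 7 of 17 folding genes with a window, 2 of 9 degradation genes and 0 of 6 sensors. In the following stretches, read 5′ to 3′ along the strand of the gene, capitals mark CCAAT and CCACG, or ATTGG and CGTGG where the element lies on the opposite strand. All lie upstream of the start.
Hspa5 (chr2:34772010-34772058, + strand): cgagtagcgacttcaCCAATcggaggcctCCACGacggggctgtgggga
Hsp90b1 (chr10:86705518-86705671, - strand): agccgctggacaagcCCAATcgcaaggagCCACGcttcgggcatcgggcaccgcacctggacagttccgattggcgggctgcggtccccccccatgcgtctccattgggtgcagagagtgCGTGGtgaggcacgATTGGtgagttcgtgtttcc
Dnajc3 (chr14:118937812-118937860, + strand): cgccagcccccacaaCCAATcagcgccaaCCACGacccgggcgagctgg
Creld2 (chr15:88819505-88819553, + strand): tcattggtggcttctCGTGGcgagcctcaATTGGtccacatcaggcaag
Calr (chr8:84847060-84847108, - strand): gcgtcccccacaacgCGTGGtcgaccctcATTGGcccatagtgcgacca
Canx (chr11:50325785-50325833, - strand): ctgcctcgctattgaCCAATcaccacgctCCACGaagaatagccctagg
Pdia6 (chr12:17266476-17266524, + strand): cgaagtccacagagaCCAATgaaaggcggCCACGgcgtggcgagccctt
Syvn1 (chr19:6046517-6046565, + strand): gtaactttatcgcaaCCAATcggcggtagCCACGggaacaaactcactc
Derl3 (chr10:75893227-75893275, + strand): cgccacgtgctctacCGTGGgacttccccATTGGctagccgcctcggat
Hsp90b1 was the one gene of the 32 with 2 full elements. A match of letters is a description of the window and does not show that a factor binds there.

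Most folding genes were lower at P0 than at E18.5. In knockouts, 26 of the 36 ER genes passed limma's test at an adjusted p under 0.05, against 23% of all tested genes. Of these, 25 were lower at P0, where 11.7% of all genes were, and 1 was higher, where 11.3% of all genes were. The median log2 difference of the 36 genes was -0.61, beside a median near 0 over all genes, and 28 of the 36 had an unadjusted p under 0.05 (background 34.9%). In wild type, 13 of the 36 passed (background 8.86%), 12 of them lower (background 4.1%) and 1 higher (background 4.76%), with a median of -0.52, 34 of the 36 below 0, and 29 with an unadjusted p under 0.05 (background 24.4%). The 2 age comparisons use different arrays. The wild-type count depended on single arrays: it ran from 4 to 20 with 1 array left out, and was 4, 6 or 20 without E18.5 wild-type array 2, 1 or 4 and 8 without P0 wild-type array 3. Edem1, Sel1l, Selenos and Erp44 kept their wild-type call whichever array was left out, and the other 9 genes lost it without E18.5 wild-type array 2. In knockouts 24 of the 26 kept their call, Pdia2 lost it without E18.5 knockout array 2, and Pdia3 lost it without any 1 of 10 arrays. All 12 genes called lower in wild type were called lower in knockouts as well, which is 100% of the wild-type list and 48.0% of the knockout list. The same overlap over all tested genes was not computed, so it is not shown to be particular to the ER genes. The P0 and E18.5 arrays did not overlap at all for 18 of the 36 genes in knockouts (background 12.4%) and for 11 in wild type (background 11.6%).

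**Figure D1:**
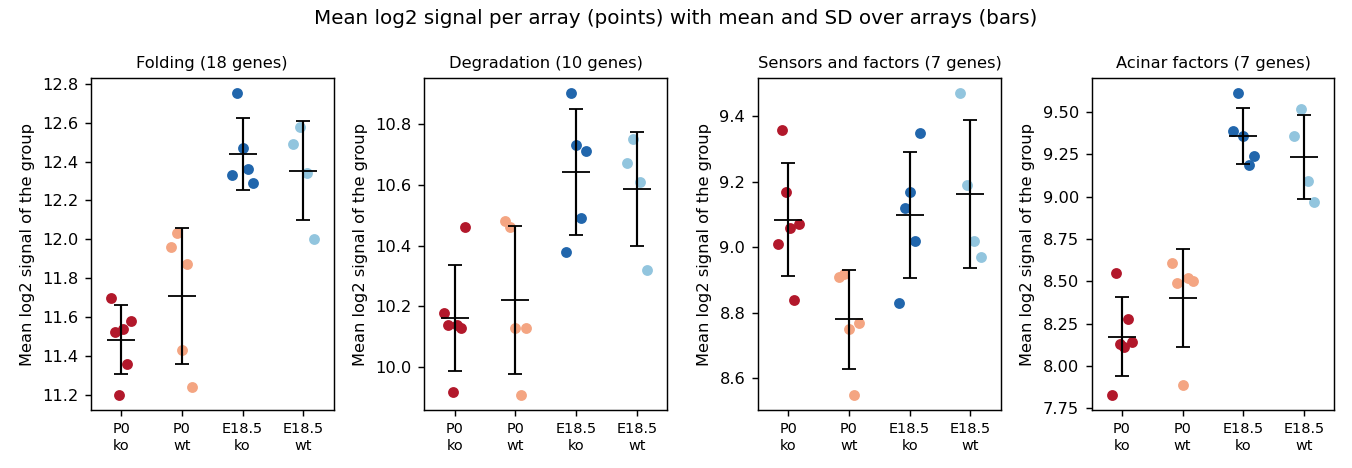
Mean log2 signal of the folding genes, the degradation genes, the sensors and response factors, and the acinar transcription factors on each array (y axis), with groups along the x axis. Points are arrays and bars are the mean and SD over arrays. Folding genes lay between 11.20 and 11.70 in P0 knockouts and between 11.24 and 12.03 in P0 wild type, against 12.29 to 12.75 in E18.5 knockouts and 12 to 12.58 in E18.5 wild type.

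Among the folding genes, 16 of 18 were called lower at P0 in knockouts (background 11.7%), with a median log2 difference of -1.09. In wild type 8 of 18 were called lower (background 4.1%), with a median of -0.62. Averaged per array, the 18 genes gave 11.20, 11.53 and 11.70 (lowest, median and highest) in P0 knockouts and 11.96, 12.03, 11.43, 11.87 and 11.24 in P0 wild type. The E18.5 averages were 12.33, 12.75, 12.47, 12.36 and 12.29 in knockouts and 12.49, 12.58, 12.34 and 12 in wild type. Each P0 knockout array lay below each E18.5 array, while P0 wild-type array 2 lay above the lowest E18.5 wild-type array. P0 wild-type arrays 3 and 5 fell inside the range of the P0 knockouts.

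Hspa5 encodes BiP, the Hsp70 of the ER lumen that binds unfolded chains and holds the sensors inactive. Its log2 signal was 11.54, 11.92 and 12.12 (lowest, median and highest) in P0 knockouts, against 12.15, 12.78, 12.62, 12.39 and 12.22 in E18.5 knockouts. The groups did not overlap, although the highest P0 array and the lowest E18.5 array were close, and the difference was -0.57 ± 0.15 (SE, limma adjusted p = 0.0125). In wild type, BiP transcript measured 12.24, 12.06, 11.80, 11.68 and 11.59 at P0 against 12.57, 12.65, 12.41 and 12.05 at E18.5. That difference was of the same size, -0.55 ± 0.17, and missed the threshold (adjusted p = 0.0518). Hsp90b1, the ER form of Hsp90 that folds a narrower set of clients, fell by 0.71 ± 0.14 in knockouts (adjusted p = 0.00164) and by 0.64 ± 0.16 in wild type (adjusted p = 0.0172). Within the 9 E18.5 arrays, Hspa5 and Hsp90b1 signals tracked each other (Pearson r = 0.953, adjusted exact permutation p = 0.00141 over 8 relations; Spearman rho = 0.95, adjusted exact p = 0.00282; r = 0.895 without the 2 arrays farthest from the Hspa5 median). Within the 11 P0 arrays the same pair had r = 0.636 (adjusted permutation p = 0.166) and rho = 0.436 (adjusted p = 0.492).

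Several partners that drive or reset BiP's cycle were lower at P0 as well. Sdf2l1, a small lumenal protein that works with the J-domain protein ERdj3, had 8.07, 8.51 and 9.21 (lowest, median and highest) in P0 knockouts, against 10.19, 10.66, 10.30, 9.94 and 10.49 in E18.5 knockouts. In wild type it had 9.31, 9.60, 9.16, 8.85 and 8.31 at P0, against 10.08, 10.81, 10.25 and 9.75 at E18.5. No P0 array reached any E18.5 array of its genotype, and Sdf2l1 was 3.41-fold lower in knockouts (-1.77 ± 0.24, adjusted p = 0.000108) and 2.26-fold lower in wild type (-1.17 ± 0.27, adjusted p = 0.0119). Hyou1, the nucleotide exchange factor that releases ADP from BiP, fell by 1.15 ± 0.19 in knockouts (adjusted p = 0.000461) and by 0.79 ± 0.21 in wild type (adjusted p = 0.0273). Sil1, the other exchange factor, did not pass in either genotype (-0.25 ± 0.19, adjusted p = 0.368, and -0.59 ± 0.21, adjusted p = 0.0834).

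The J-domain co-chaperones, which hand substrates to BiP, differed among themselves. Dnajb9 (ERdj4), a target of XBP1, fell by 1.03 ± 0.26 in knockouts (adjusted p = 0.00744) and by 1.09 ± 0.28 in wild type (adjusted p = 0.0238). Dnajb11 (ERdj3) fell by 1.15 ± 0.14 in knockouts (adjusted p = 5.29e-05), and its wild-type difference of -0.51 ± 0.16 stood just outside the threshold (adjusted p = 0.0515). Dnajc3 (p58IPK), which also restrains PERK, measured 12.90, 13.35 and 13.48 (lowest, median and highest) in P0 knockouts, against 14.31, 14.70, 14.76, 14.50 and 14.47 in E18.5 knockouts. In wild type Dnajc3 measured 14.33, 14.38, 13.55, 13.95 and 13.50 at P0, against 14.65, 14.65, 14.41 and 14.16 at E18.5. The knockout groups stood apart, and the wild-type groups overlapped. Dnajc3 fell by 1.26 ± 0.16 in knockouts (adjusted p = 6.19e-05) and differed by -0.52 ± 0.18 in wild type (adjusted p = 0.0735). Dnajc10 (ERdj5), a disulfide reductase that prepares substrates for degradation, went the other way without passing (0.09 ± 0.10, adjusted p = 0.547, and 0.29 ± 0.11, adjusted p = 0.104), and its spread between arrays was the smallest of the 36 genes (pooled SD 0.163).

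Both lectin chaperones, which bind glucose-trimmed glycoproteins, were lower at P0 in knockouts. Calr (calreticulin) had 10.85, 11.15 and 11.84 (lowest, median and highest) in P0 knockouts, against 12.75, 13.38, 13.22, 12.82 and 12.48 in E18.5 knockouts, a log2 difference of -1.70 ± 0.27 (adjusted p = 0.000289). In wild type it had 12.05, 12.51, 11.15, 12.65 and 11.23 at P0, against 12.94, 13.06, 12.69 and 12.34 at E18.5. Arrays 3 and 5 of P0 wild type were about as low as the P0 knockouts, array 2 and array 4 lay above the lowest E18.5 array, and the difference of -0.84 ± 0.30 was not called (adjusted p = 0.0834). Canx (calnexin), the membrane-bound counterpart, fell by 0.41 ± 0.11 in knockouts (adjusted p = 0.0153) and differed by -0.30 ± 0.13 in wild type (adjusted p = 0.159). Creld2, an ER protein induced by ER stress, fell by 1.69 ± 0.25 in knockouts (adjusted p = 0.000183) and by 1.14 ± 0.28 in wild type (adjusted p = 0.0167).

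All 4 measured Pdia-named isomerases and P4hb, the founding disulfide isomerase, were called lower in knockouts, with falls between 0.42 for Pdia3 (adjusted p = 0.0448), the partner of calnexin and calreticulin, and 1.42 for Pdia6 (adjusted p = 0.000264), which modulates IRE1 and PERK signalling. Erp44, which returns cargo from the early Golgi, fell by 1.21 ± 0.16 (adjusted p = 7.08e-05). In wild type Pdia5 (-0.86 ± 0.19, adjusted p = 0.0121), Pdia6 (-0.91 ± 0.24, adjusted p = 0.0267) and Erp44 (-0.81 ± 0.17, adjusted p = 0.00839) passed as well, and P4hb did not (-0.59 ± 0.20, adjusted p = 0.0771). Pdia2 differed by -0.58 ± 0.17 in knockouts (adjusted p = 0.019) and by -0.43 ± 0.19 in wild type (adjusted p = 0.16).

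**Figure D2:**
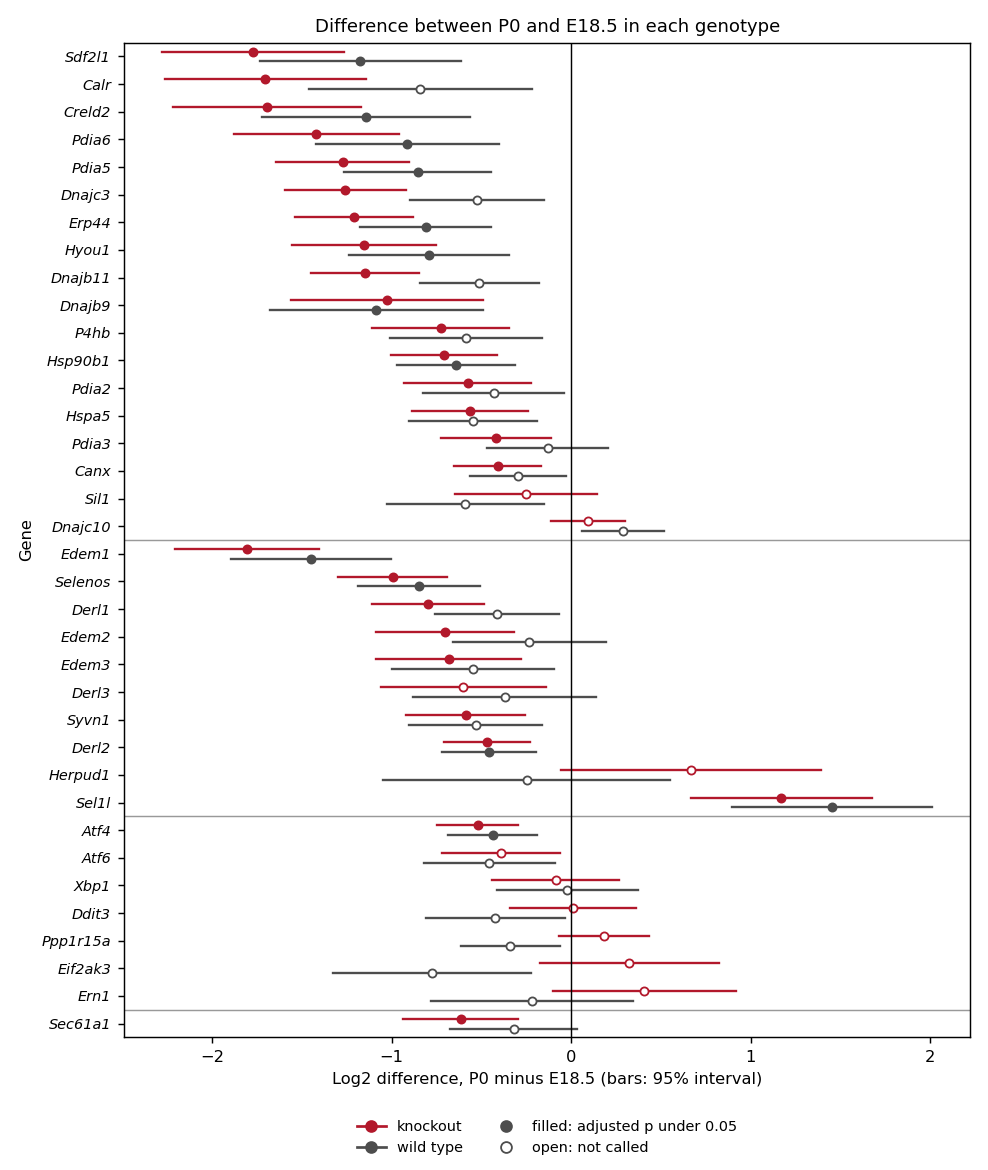
Log2 difference, P0 minus E18.5 (x axis), of the 36 genes (y axis, grouped as folding, degradation, sensors and factors, translocon), in knockouts and in wild type. Lines are 95% intervals, and filled points passed an adjusted p under 0.05. Edem1 is the lowest gene in both genotypes (-1.81 and -1.45) and Sel1l the highest (1.17 and 1.45).

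Most degradation genes were lower at P0 in knockouts. There, 7 of 10 were called lower (background 11.7%) and 1 higher (background 11.3%), with a median of -0.64. In wild type 3 were called lower (background 4.1%) and 1 higher (background 4.76%), with a median of -0.43. In knockouts the share called higher was thus near the background. Edem1, which recognises mannose-trimmed glycoproteins and sends them to degradation, had 9.49, 10.05 and 10.43 (lowest, median and highest) in P0 knockouts, against 11.90, 12.25, 11.65, 11.74 and 11.54 in E18.5 knockouts. In wild type it had 10.58, 10.38, 10.02, 10.33 and 9.75 at P0, against 11.85, 11.96, 11.65 and 11.17 at E18.5. The ages did not overlap in either genotype, and Edem1 was 3.50-fold lower at P0 in knockouts (-1.81 ± 0.19, adjusted p = 1.38e-05) and 2.73-fold lower in wild type (-1.45 ± 0.21, adjusted p = 0.000861). Its relatives Edem2 and Edem3 fell by 0.70 ± 0.18 (adjusted p = 0.00982) and 0.68 ± 0.19 (adjusted p = 0.0159) in knockouts and were not called in wild type.

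Sel1l was the 1 ER gene called higher at P0, in knockouts and in wild type. It encodes the scaffold that holds the ubiquitin ligase HRD1 at the ER membrane. Its signal was 13.88, 14.60 and 15.09 (lowest, median and highest) in P0 knockouts, against 12.59, 13.50, 13.68, 13.23 and 14.01 in E18.5 knockouts. In wild type it was 15.06, 15.15, 14.95, 14.25 and 15.31 at P0, against 13.75, 13.56, 13.33 and 13.34 at E18.5. The groups touched in knockouts, where 1 E18.5 array was above the lowest P0 array, and stood apart in wild type. Sel1l rose by 1.17 ± 0.24 in knockouts (adjusted p = 0.00202) and by 1.45 ± 0.27 in wild type (adjusted p = 0.00375). Its partner Syvn1, which is HRD1 itself and carries the stress element shown above, fell by 0.59 ± 0.16 in knockouts (adjusted p = 0.0119) and differed by -0.53 ± 0.18 in wild type (adjusted p = 0.0653). Thus within 1 ligase complex the scaffold was higher and the ligase lower at P0 in knockouts.

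The derlins and selenoprotein S, membrane proteins of the same degradation machinery, were lower or not called. Selenos fell by 0.99 ± 0.15 in knockouts (adjusted p = 0.000173) and by 0.85 ± 0.16 in wild type (adjusted p = 0.00451), and Derl2 fell by 0.47 ± 0.11 (adjusted p = 0.0061) and 0.46 ± 0.13 (adjusted p = 0.0304). Derl1 fell by 0.80 ± 0.15 in knockouts (adjusted p = 0.00102) and differed by -0.41 ± 0.17 in wild type (adjusted p = 0.127). Derl3, typical of secretory cells, was not called (-0.60 ± 0.22, adjusted p = 0.0551, and -0.37 ± 0.24, adjusted p = 0.374). Of 9 plasma and B cell markers, 3 (Ighm, Cd79a and Cd79b) passed the signal filter and none was called between ages. Their mean ran from 5.35 to 6.13 in P0 knockouts and 5.62 to 5.88 in P0 wild type, against 5.26 to 5.90 in E18.5 knockouts and 5.40 to 5.72 in E18.5 wild type. Herpud1, a short-lived scaffold of the same complex, was the most variable of the 36 genes (pooled SD 0.598), and P0 wild-type array 4 had 10.29 where the other four lay between 11.99 and 13.04. Herpud1 was not called between ages (0.67 ± 0.34, adjusted p = 0.179, and -0.25 ± 0.38, adjusted p = 0.749).

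**Figure D3:**
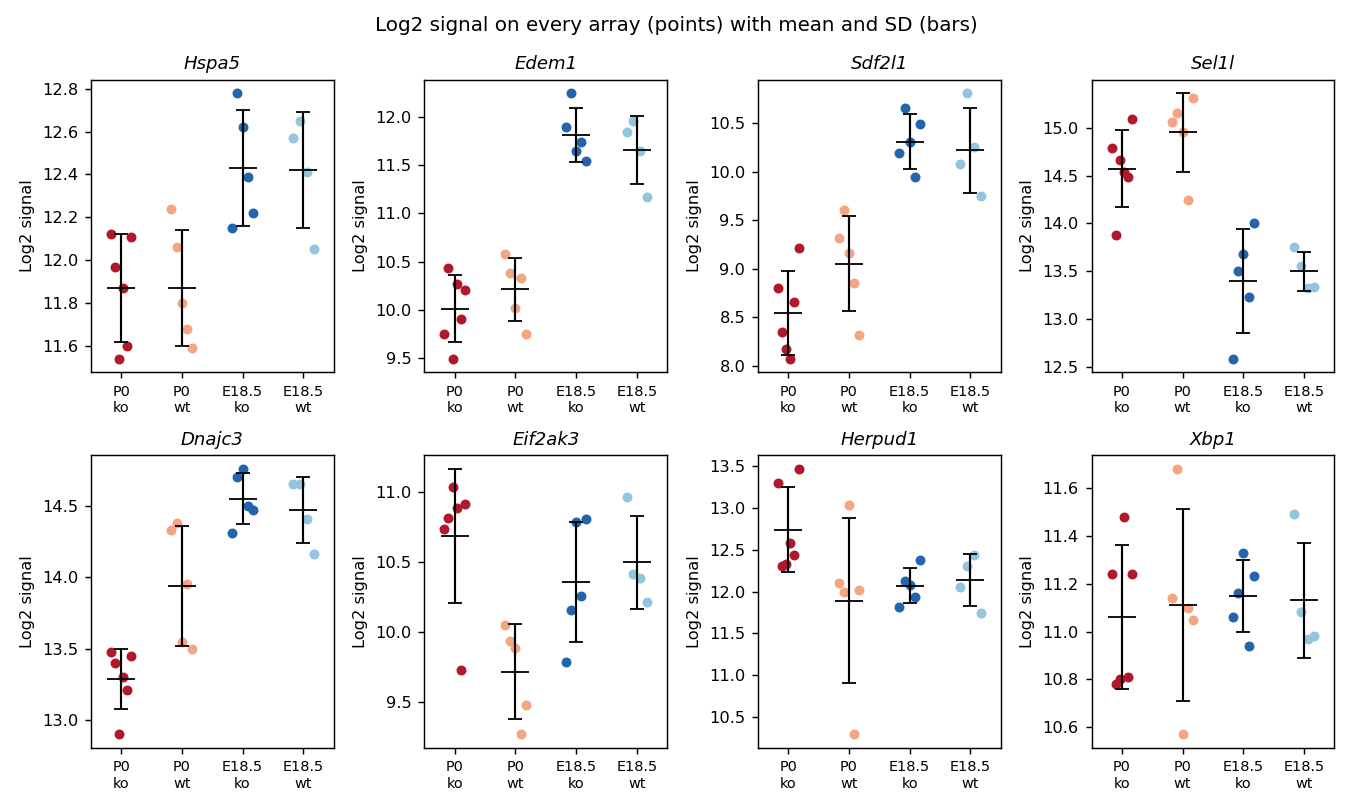
Log2 signal (y axis) of 8 genes on every array (points), with mean and SD (bars), in P0 knockouts, P0 wild type, E18.5 knockouts and E18.5 wild type. Hspa5, Edem1, Sdf2l1 and Dnajc3 have lower means at P0 than at E18.5, Sel1l has higher ones, and Xbp1 overlaps in all groups. In wild type the ages of Hspa5 and Dnajc3 overlap. Eif2ak3 is above 10.7 on 5 of 6 P0 knockout arrays and at most 10.05 in P0 wild type.

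Of the 7 sensors and response factors, Atf4 alone was called between ages, lower in both genotypes. Of all genes, 11.7% were called lower in knockouts and 4.1% in wild type, so 1 of 7 is not far from the background. The median difference of the 7 was 0.01 in knockouts and -0.42 in wild type. In wild type all 7 lay below 0 and 5 had an unadjusted p under 0.05 (background 24.4%), while in knockouts 3 of 7 lay below 0 and 2 had such a p (background 34.9%). Atf4, the translationally controlled factor downstream of PERK, had 9.04, 9.22 and 9.40 (lowest, median and highest) in P0 knockouts, against 9.36, 9.94, 9.92, 9.60 and 9.93 in E18.5 knockouts, a difference of -0.52 ± 0.11 (adjusted p = 0.00212). In wild type it had 9.33, 9.11, 9.04, 9.12 and 9.27 at P0, against 9.84, 9.69, 9.39 and 9.52 at E18.5, a difference of -0.44 ± 0.12 (adjusted p = 0.0291). The knockout ages overlapped by 1 array and the wild-type ages did not overlap.

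Xbp1, whose spliced product drives chaperone and degradation genes, showed no difference that could be told from 0. It had 10.78, 11.02 and 11.48 (lowest, median and highest) in P0 knockouts and 11.14, 11.68, 10.57, 11.10 and 11.05 in P0 wild type. At E18.5 it had 11.06, 11.16, 11.33, 10.94 and 11.23 in knockouts and 11.49, 11.08, 10.97 and 10.98 in wild type. The age difference was -0.09 (95% interval -0.44 to 0.27, adjusted p = 0.766) in knockouts and -0.02 (-0.42 to 0.37, adjusted p = 0.971) in wild type. A probe set for the whole transcript does not separate spliced from unspliced Xbp1, and the sensors act through their proteins, which were not measured. Across arrays of 1 age, Xbp1 signal followed neither Dnajb9 (r = 0.355 over 11 P0 arrays and 0.36 over 9 E18.5 arrays) nor Hspa5 (r = 0.49 and 0.429) beyond what the permutations gave. The same held for Atf4 with Ddit3 (r = -0.089 and 0.343). The adjusted permutation p of these 6 relations was 0.339 or more for r and 0.374 or more for rho. Split by genotype, over 4 to 6 arrays, r at P0 and E18.5 for Xbp1 with Dnajb9 was -0.05 and -0.21 in knockouts and 0.72 and 0.65 in wild type. For Xbp1 with Hspa5 it was 0.57 and 0.36 in knockouts and 0.43 and 0.51 in wild type. For Atf4 with Ddit3 it was -0.48 and -0.26 in knockouts and 0.01 and 0.94 in wild type. These split values were not tested.

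Atf6, the sensor cleaved in the Golgi, differed by -0.39 ± 0.16 in knockouts (adjusted p = 0.0801) and by -0.46 ± 0.17 in wild type (adjusted p = 0.108). Ern1 (IRE1) differed by 0.41 ± 0.24 (adjusted p = 0.249) and -0.22 ± 0.27 (adjusted p = 0.673), with P0 knockout array 2 at 9.53 above every other array. Eif2ak3 (PERK) differed by 0.32 ± 0.24 in knockouts (limma adjusted p = 0.359) and by -0.77 ± 0.26 in wild type (limma adjusted p = 0.0729). Its ages overlapped in knockouts and did not overlap in wild type. Ddit3 (CHOP), the pro-apoptotic factor downstream of ATF4, differed by 0.01 ± 0.17 in knockouts (adjusted p = 0.984) and -0.42 ± 0.18 in wild type (adjusted p = 0.163). Ppp1r15a (GADD34), which restores translation after PERK activity, differed by 0.18 ± 0.12 (adjusted p = 0.297) and -0.34 ± 0.13 (adjusted p = 0.119). Sec61a1, the translocon subunit, fell by 0.61 ± 0.15 in knockouts (adjusted p = 0.00734) and differed by -0.32 ± 0.17 in wild type (adjusted p = 0.259).

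Of the 9 genes that carry the full stress element, 8 were called lower at P0 in knockouts and Derl3 was not, with differences between -1.70 and -0.41 and a median of -0.71. Of 22 measured genes whose window lacks it, 14 were called lower and 1 higher, with differences between -1.81 and 1.17 and a median of -0.55. In wild type, 3 of the 9 (Hsp90b1, Creld2 and Pdia6) and 8 of the 22 were called lower. Of all tested genes, 11.7% were called lower in knockouts and 4.1% in wild type. The 22 include the 6 sensors with a window, none of which carries the element, so the 2 sets also differ in role. A link between the element and the fall was not tested. Edem1 and Sdf2l1, which fell furthest, have no full element in their windows.

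**Figure D4:**
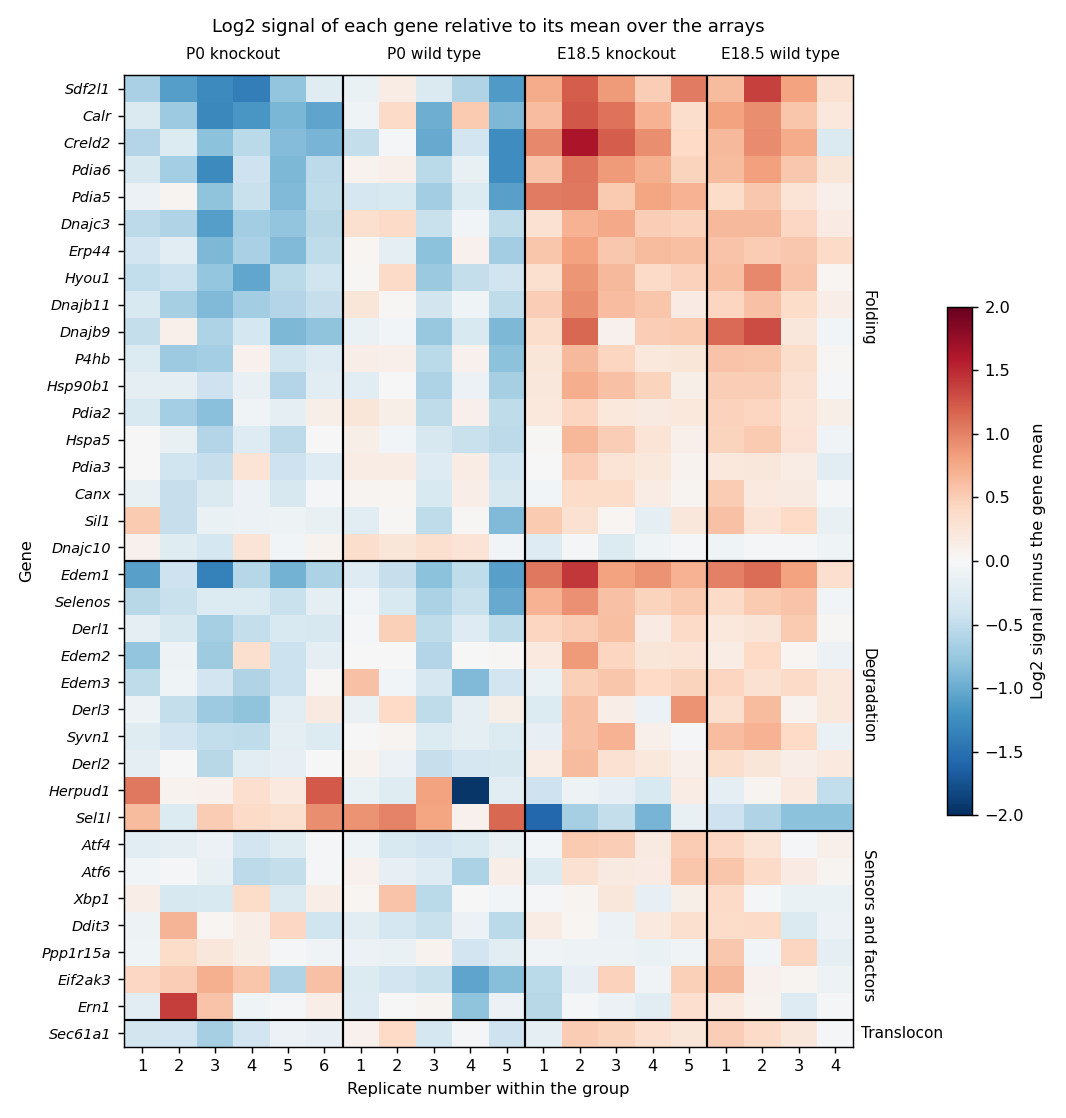
Log2 signal of each gene minus its mean over the 20 arrays (colour), with genes down the y axis by role and arrays along the x axis by group and replicate number. Most folding and degradation genes are blue on most P0 arrays and red on most E18.5 arrays, and Sel1l is reversed. Dnajc3 is blue on all 6 P0 knockout arrays and red on P0 wild-type arrays 1 and 2.

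Neighbouring steps of the secretory pathway were described by lists that hold none of the 38 genes, against a background of 11.7% of all genes called lower and 11.3% called higher in knockouts, and 4.1% and 4.76% in wild type. In knockouts and in wild type, translocon and signal peptidase genes were called lower in 15 and 2 of 20, led by Tram1 (-1.66 ± 0.24), Ssr1 and Ssr2 in knockouts and by Srprb and Sec11c in wild type. Glycosylation genes were called lower in 12 and 5 of 16, with Ostc, a subunit of the oligosaccharyltransferase, at -2.29 ± 0.36 (adjusted p = 0.000294) in knockouts and -1.35 ± 0.40 (adjusted p = 0.0428) in wild type. Oxidative folding genes and prolyl isomerases were called lower in 12 and 4 of 18, with Fkbp11, a prolyl isomerase of secretory cells, at -2.39 ± 0.28 (adjusted p = 3.09e-05) and -1.59 ± 0.31 (adjusted p = 0.00517), and 1 was called higher in wild type. Cargo export genes were called lower in 10 and 3 of 19, among them Sec23b (-1.50 ± 0.18 and -0.83 ± 0.19) and the cargo receptor Lman1 (-1.46 ± 0.20 and -0.87 ± 0.22). Other degradation genes were called lower in 6 and 3 of 16 and higher in 1 and 4, and Rnf5, an ER ubiquitin ligase, fell by 0.70 ± 0.08 and 0.55 ± 0.09.

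Response factors and the chaperones of other compartments were set against the same background, 11.7% called lower and 11.3% higher in knockouts. In wild type these shares were 4.1% and 4.76%. In each of these lists the share called lower lay above the background in both genotypes. Other factors of the unfolded protein response were called lower in 4 and 2 of 16 and higher in 2 and 1. Chac1, a glutathione-degrading target of ATF4, fell by 1.29 ± 0.18 (adjusted p = 0.000144) and 0.83 ± 0.20 (adjusted p = 0.0172), and Crebrf, a negative regulator of the CREB3 factor, rose by 1.55 ± 0.24 (adjusted p = 0.00028) and 1.14 ± 0.27 (adjusted p = 0.0145). Cytosolic heat-shock genes were called lower in 3 and 3 of 11 and higher in 1 and 0, with medians of -0.08 and 0.00, and Chordc1, an Hsp90 co-chaperone, was the lowest (-1.40 ± 0.29 and -1.60 ± 0.32). Mitochondrial chaperones and proteases were called lower in 5 and 2 of 10 and higher in 1 and 1, with medians of -0.34 and -0.25. Among them, Hspd1 (Hsp60) stood at -0.65 ± 0.13 (adjusted p = 0.002) in knockouts.

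Transcription factors of acinar cells split in the same samples. The mean over 7 tested genes ran from 7.83 to 8.55 in P0 knockouts and 7.89 to 8.61 in P0 wild type, against 9.19 to 9.61 in E18.5 knockouts and 8.97 to 9.52 in E18.5 wild type. Of the 7, 4 were called lower in knockouts (median log2 difference -0.64, background 11.7%) and 3 in wild type (median -0.13, background 4.1%). Ptf1a, Bhlha15 and Rbpjl were called lower in both genotypes and Gata4 in knockouts (-0.64 ± 0.13, adjusted p = 0.0015). The others were not called, with Nr5a2 at -0.36 ± 0.14 in knockouts and 0.35 ± 0.15 in wild type, Gata6 at 0.21 ± 0.10 and 0.00 ± 0.11, and Foxp2 at 0.02 ± 0.14 and 0.03 ± 0.16. Ptf1a, which specifies acinar identity, lay between 7.40 and 11.33 in P0 knockouts and 8.13 and 9.29 in P0 wild type, against 11.43 to 12.93 and 10.79 to 12.69 at E18.5. Bhlha15 (MIST1), which builds the secretory apparatus, lay between 5.70 and 7.31 and 5.88 and 6.93 at P0, against 7.75 to 9 and 7.56 to 8.91 at E18.5. The means of 22 acinar enzymes, many of them at or near the ceiling, were 18.35 to 18.60 in P0 knockouts and 18.63 to 18.76 in P0 wild type, against 18.20 to 18.51 and 18.36 to 18.49. Mesenchyme markers lay on the other side of 0. All 9 tested were above it in both genotypes, with medians of 0.34 and 0.33. Of these, 4 were called higher in knockouts (background 11.3%) and 1 in wild type (background 4.76%). Their mean ran from 11.58 to 12.48 in P0 knockouts and 11.99 to 12.58 in P0 wild type, against 11.31 to 11.87 in E18.5 knockouts and 11.59 to 12.21 in E18.5 wild type. In whole pancreas, fewer cells of a type and less RNA per cell cannot be told apart, and the part of these markers in the fall of the ER genes was not tested. Without the 4 arrays with an intestinal mean over 8 or a muscle mean over 7, 21 ER genes passed in knockouts and 17 in wild type, where 9.71% and 8.73% of all genes did. With the liver, intestinal and muscle means as covariates, 14 and 4 passed, where 8.25% and 5.3% of all genes did. Without the 8 arrays with either mean over 7, which leaves 1 E18.5 knockout array, 0 and 1 passed, where 0.0389% and 0.906% of all genes did. The medians of the 36 genes were then -0.72 and -0.60.

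The difference between the genotypes' age effects is the interaction term, which asks the same as whether the knockout effect differs between the ages. No ER gene passed it in limma (0 of 36, background 0%), and 5 of 36 had an unadjusted p under 0.05, where 6.98% of all genes did. The larger count of called genes in knockouts is therefore not shown to be a difference from wild type. The smallest p belonged to Eif2ak3 (1.10 ± 0.35, adjusted p = 0.585), Dnajc3 (-0.73 ± 0.24, adjusted p = 0.59), Dnajb11 (-0.64 ± 0.21, adjusted p = 0.592), Ppp1r15a (0.52 ± 0.18, adjusted p = 0.604), Calr (-0.86 ± 0.40, adjusted p = 0.705) and Herpud1 (0.91 ± 0.51, adjusted p = 0.756).

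Loss of inceptor changed no ER gene past the threshold at either age. In simulated data with more changed genes than were called here, a log2 change of 0.5 was called in 44% of those changed by it at P0 and 47.5% at E18.5. The data themselves gave 2 calls among 17993 genes at each age, which makes the adjusted threshold stricter than in the simulation. Recovery here was therefore likely lower, and differences of 0.5 or more could be missed. At P0, 0 of 36 genes passed in limma (background 0.0111%), and 8 had an unadjusted p under 0.05, where 8.76% of all genes did. Folding genes leaned down, with 15 of 18 below 0 and a median log2 difference of -0.19, and sensors and factors leaned up, with 5 of 7 above 0 and a median of 0.24, beside a median of 0.01 over all genes. Since none passed, these are values and not changes. The liver markers leaned up in the same comparison, with 12 of 12 above 0 and a median of 1.43, and none of them was called. With the 3 marker means as covariates, Dnajc3 differed by -0.62 and Eif2ak3 by 0.90.

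**Figure D5:**
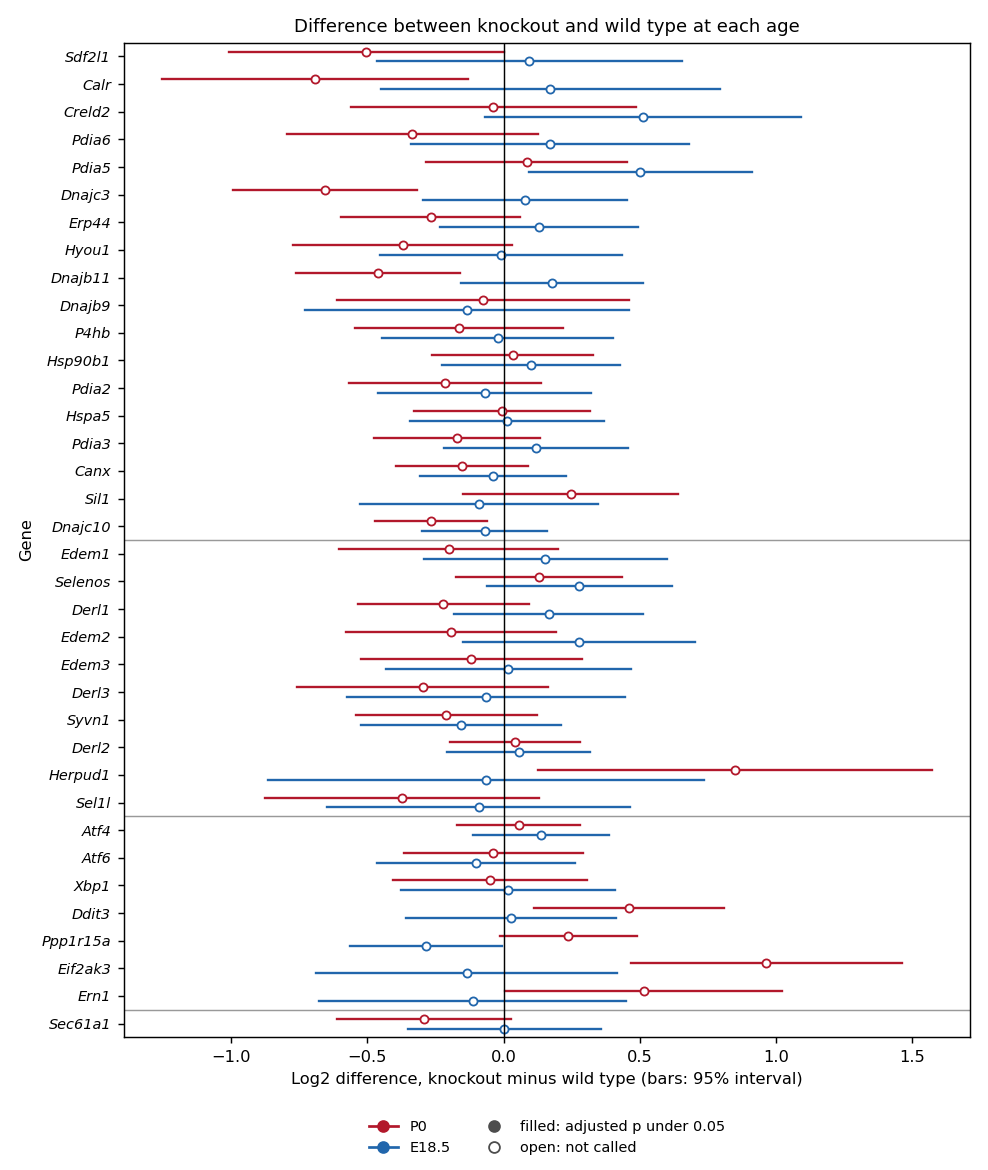
Log2 difference, knockout minus wild type (x axis), of the 36 genes (y axis, in the same order), at P0 and at E18.5. Lines are 95% intervals, and open points did not pass an adjusted p under 0.05, which holds for all 36 genes at both ages. At P0 Dnajc3 stands at -0.66 and Eif2ak3 at 0.96.

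Dnajc3 and Eif2ak3 had the smallest p at P0 and ranked 70 and 74 among 17993 genes. Dnajc3 was 12.90, 13.35 and 13.48 (lowest, median and highest) in P0 knockouts, against 14.33, 14.38, 13.55, 13.95 and 13.50 in P0 wild type. It was the one ER gene whose P0 groups did not overlap (background 0.511%), by a margin of a few hundredths, and its difference was -0.66 ± 0.16 (adjusted p = 0.176, lower than the wild-type mean on 6 of 6 arrays). Eif2ak3, which encodes PERK, was 9.73, 10.85 and 11.04 in P0 knockouts, against 10.05, 9.94, 9.89, 9.27 and 9.48 in P0 wild type. Knockout arrays 1 to 4 and 6 stood above all wild-type arrays and array 5 fell among them, and the difference was 0.96 ± 0.24 (adjusted p = 0.176, higher than the wild-type mean on 6 of 6 arrays). PERK and its inhibitor p58IPK thus stood on opposite sides of 0 at P0, neither past the threshold. Without P0 knockout array 5 the difference of Eif2ak3 was 1.16 (adjusted p = 0.0694), and without P0 wild-type array 4 it was 0.85 (adjusted p = 0.511).

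The next 4 genes by p at P0 were Dnajb11 (-0.46 ± 0.14, adjusted p = 0.412), Ddit3 (0.46 ± 0.17, adjusted p = 0.482), Dnajc10 (-0.27 ± 0.10, adjusted p = 0.498) and Calr (-0.69 ± 0.27, adjusted p = 0.521). Ddit3 has a second probe set, on which the groups lay closer, at 8.33 ± 0.39 in P0 knockouts (SD, n = 6) and 8.12 ± 0.09 in P0 wild type (SD, n = 5), against 8.71 ± 0.38 and 8.25 ± 0.18 on the first. Hspa5 averaged 11.87 ± 0.25 in P0 knockouts (SD, n = 6) and 11.87 ± 0.27 in P0 wild type (SD, n = 5), and the 95% interval of its difference ran from -0.33 to 0.32. Xbp1 differed by -0.05 ± 0.17, Atf4 by 0.06 ± 0.11, Atf6 by -0.04 ± 0.16 and Ern1 by 0.51 ± 0.24 (adjusted p = 0.569).

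At E18.5, 0 of 36 genes passed in limma (background 0.0111%), and 2 had an unadjusted p under 0.05, where 5.45% of all genes did. No gene had groups that did not overlap (background 2.45%). The 18 folding genes were spread around 0, with 11 above it and a median of 0.09. Pdia5, a disulfide isomerase that acts on ATF6, came first with 8.98, 9, 8.47, 8.73 and 8.63 in E18.5 knockouts, against 8.30, 8.48, 8.22 and 8.04 in E18.5 wild type. Its groups overlapped by 1 array and the difference was 0.50 ± 0.19 (adjusted p = 0.852). Creld2 (0.51 ± 0.28), Ppp1r15a (-0.28 ± 0.13), Selenos (0.28 ± 0.16), Edem2 (0.28 ± 0.20) and Atf4 (0.14 ± 0.12) followed, all with an adjusted p of 0.911 or more. The genotype difference of Ppp1r15a had opposite signs at the 2 ages, and the interaction given above did not pass. At E18.5 its wild-type arrays had 6.40, 5.80, 6.29 and 5.67, and all 5 knockout arrays lay inside that range, between 5.72 and 5.78. At P0 it was above the wild-type mean on 6 of 6 knockout arrays, and the groups overlapped. Hspa5 at E18.5 averaged 12.43 ± 0.27 in knockouts (SD, n = 5) and 12.42 ± 0.27 in wild type (SD, n = 4), with a 95% interval of the difference from -0.34 to 0.37.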

How the data were processed

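The authors deposited log2 signals made by RMA, which corrects background, normalises between arrays and summarises probe sets, in Affymetrix Expression Console 1.4.1.46, per the submitters' processing notes. The array's genome build is not given in the sources used here. According to the labels, RNA was extracted with the RNeasy Lipid Tissue Kit and amplified and labelled with NuGEN kits. Values end at 19.932 (log2 of 1000000), reached by 261 to 278 probe sets on each array, for a reason not stated. Array medians were 4.81 to 4.94.

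Of 65956 probe sets, 30604 had 1 symbol, 2146 several and 33206 none in the platform annotation, and 1135 symbols were updated to GRCm38.p6. For each gene the single-symbol probe set with the highest mean was used, and genes above the array median on 4 or more arrays were tested. The 20 arrays entered 1 linear model with 4 group means (limma 3.58.1, R 4.3.3, 16 residual degrees of freedom), tested two-sided, with Benjamini-Hochberg adjustment over 17993 genes and calls at an adjusted p under 0.05. Differences are ± SE unless marked SD. The number of arrays limits the precision: in data simulated at this size, changes of 1 (log2) were called in 79.7% of genes for P0 minus E18.5 in knockouts (74 genes changed), 71% in wild type (62), 95.7% for knockout minus wild type at P0 (69) and 87.7% at E18.5 (65), and changes of 0.5 in 54.5% (66), 43.5% (69), 44% (75) and 47.5% (61). The adjusted threshold depends on how many genes are called. In the data this was 4139 and 1594 in the age comparisons and 2 in each genotype comparison. The simulated shares therefore do not carry over to the data, and for the genotype comparisons they are likely too high. For the age comparisons, where more genes were called than were changed in the simulation, they may be too low.

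The genes and all lists were chosen with earlier results of these data known. Named with full statistics are, in each age comparison, up to 10 called ER genes with the largest change each way; in each genotype comparison and the interaction, the called genes or else the 6 with the smallest p; up to 3 called genes of each other list; and always Hspa5, Xbp1, Atf4, Ddit3, Ern1, Eif2ak3 and Atf6. Other values are given to account for every gene. Replicate numbers recur in all groups, but over 27 same-number pairs the deviations from group means correlated between -0.305 and 0.245, with 8 above 0.1, so the main fit does not pair arrays. Promoter windows are from RefSeq. Protein features were not run, since no protein table was used here. Correlations used Python 3.11.15 with scipy 1.17.1, exact for 9 arrays and 100000 resamples for 11. Alternatives are given in the closing section.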

Additional observations from a re-analysis of the deposited data

Results flagged for a closer look

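In 156 groups of 4 to 6 arrays (the 36 ER genes and 3 role means), 7 groups had a highest or lowest array that stood far from the others for the group's range, and chance alone gives about 1 in 20. Eif2ak3 was 9.73 on P0 knockout array 5, where the next array had 10.74. Edem2, an EDEM family member, was 9.66 on P0 wild-type array 3, where the next had 10.24. Edem3 was 10.29 on E18.5 knockout array 1, where the next had 10.82, and this array also had a muscle marker mean of 8.75. Pdia2 was 18.71 on E18.5 knockout array 2, where the next had 18.49, and this array had the highest intestinal marker mean, 10.19. Pdia3 was 13.57 on E18.5 wild-type array 4, where the next had 13.94, and its intestinal mean was 8.67. Dnajc10 was 10.03 on P0 wild-type array 5, where the next had 10.34. Sil1 was 8.92 on P0 knockout array 1, where the next had 8.30. The part of the marker levels in these values was not tested.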

How the results depend on the processing

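In knockouts, 26 ER genes passed between the ages, and 24 to 28 did so with any single array left out. The count was 25 to 27 under the other scalings, filters, variance settings, probe set rule and the replicate block, in which it stayed at 26. It was 14 with liver, intestinal and muscle means as covariates, 21 without the 4 arrays with an intestinal mean over 8 or a muscle mean over 7 (both chosen after seeing the data), and 0 without the 8 arrays with either mean over 7, a setting that leaves 1 E18.5 knockout array, assumed to vary like the other groups, and calls 7 of all genes; 32 of 36 genes were then still below 0. In wild type the count of 13 was less stable: it was 6 with only the compared arrays, 4 with the covariates, 1 without the 8 arrays, 13 with the replicate block, and 4 to 20 with 1 array left out. Removing E18.5 wild-type array 2, 1 or 4 gave 4, 6 or 20, and removing P0 wild-type array 3 gave 8. The genotype comparisons and the interaction called 0 ER genes in limma under every setting run. Among named genes, values that changed sign were all uncalled, other than Hsph1 between ages in knockouts, which was 0.095 without the 8 arrays. In that setting Eif2ak3 between ages in knockouts was -0.23 and Creld2 between genotypes at E18.5 was -0.295. Xbp1 between ages was 0.04 in knockouts with the covariates, and in wild type ran from -0.166 to 0.112 with 1 array left out, above 0 without E18.5 array 1 (0.097) or P0 array 3. Ddit3 between ages in knockouts, 0.01 as reported, ran from -0.1 to 0.116 with 1 array left out, below 0 without E18.5 array 2 or 3 or P0 array 2 or 5 of the knockouts, and was -0.013 after quantile normalisation, -0.017 with array weights, -0.077 as a probe set mean, -0.062 without the 8 arrays, -0.104 with the covariates and -0.007 without the 4 arrays. Rescaling moved the median of all genes by 0.027 or less.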
